A study of Mus musculus with 21 samples.

Results

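The 38 genes described here were chosen by symbol for their place in glycolysis, in the response to hypoxia-inducible factors (HIF) or in the sensing of oxygen. All 38 had a row among the 55416 gene IDs of the count table, and all 38 were among the 19854 genes tested. Ca9 stands in the table under its mouse symbol, Car9 (ENSMUSG00000028463). The libraries come from a mouse model of cerebral cavernous malformation, a disease of leaky brain capillaries, made with a Cre recombinase meant to delete Pdcd10 in the endothelium of the brain.

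The hypoxic knockouts (7 libraries) were Slco1c1-iCreERT2;Pdcd10fl/fl;Aldh1l1-EGFP/Rpl10a mice kept at 12% oxygen for 7 days. The hypoxic controls (4 libraries used of 6 in the labels) were Pdcd10fl/fl;Aldh1l1-EGFP/Rpl10a mice kept likewise, and their replicates 1 and 2 were not analysed here. The normoxic knockouts and normoxic controls (4 libraries each) had the same genotypes and were kept at 21% oxygen. All mice were at postnatal day 57, all samples carry the tag Male, and every group shares the floxed alleles and the reporter that tags astrocyte ribosomes. The Cre recombinase is driven by the Slco1c1 promoter, which is active in brain endothelium. A dose of 50 µg of 4-hydroxytamoxifen on postnatal day 1 is stated for the knockouts and no dose for the controls, so genotype and injection cannot be told apart. Uninjected Cre carriers are listed among the controls too, without being tied to any sample. The design text describes the pull-down of tagged astrocyte ribosomes, whereas the extraction text of the samples describes whole brain homogenised for RNA.

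Libraries held 45399320 to 65261791 counts. Levels are given as CPM, counts scaled to the library total with that total adjusted by TMM. Pdcd10 lay between 6.98 and 12.2 CPM in hypoxic knockouts, against 24.6 to 30.7 CPM in hypoxic controls. In normoxic knockouts it lay between 7.74 and 10.3 CPM, against 19.6 to 23.5 CPM in normoxic controls. Astrocyte RNA was abundant throughout: 11 astrocyte markers summed to 27913 to 44211 CPM in hypoxic knockouts, 41086 to 47468 in hypoxic controls, 43273 to 51731 in normoxic knockouts and 41968 to 48057 in normoxic controls. RNA of other cells was also present, and none of the marker genes of neurons, endothelium, mural cells, microglia, oligodendrocytes or red blood cells was at 0 in any group. The 8 endothelial markers other than Slco1c1 summed to 12.1 to 29.8 CPM in normoxic controls and to at most 64.1 CPM, in a normoxic knockout. In which cells Pdcd10 was lower was not tested. Several of the marker lists moved with knockout. In hypoxic knockouts against hypoxic controls 4 of 7 pericyte and smooth muscle markers, 4 of 8 microglia markers, 2 of 4 oligodendrocyte precursor markers and 2 of 6 oligodendrocyte markers were called higher; in normoxic knockouts against normoxic controls it was 6, 5, 2 and 0, and none of these was called lower in either. Precursor markers summed to 475.6 to 695.2 CPM in hypoxic knockouts, against 312.4 to 408.3 in hypoxic controls, and to 615.8 to 713 CPM in normoxic knockouts, against 336.8 to 416.3 in normoxic controls, with no overlap. Without hypoxic knockouts 1 to 3, 1, 3, 2 and 0 of the same lists were called higher in hypoxia. Their median log2 fold changes were then 0.98, 0.44, 0.59 and 0.18, against 1.32, 0.51, 0.56 and 0.76 with all libraries. Of 9 endothelial markers, 2 were called higher and 0 lower with knockout in hypoxia (median 0.91). In normoxia 4 were called higher and 1, Slco1c1, lower (median 1.06). Without hypoxic knockouts 1 to 3, 1 was called higher in hypoxia (median 0.55). With all libraries, 10.4% of all genes were called higher and 9.37% lower in hypoxia, and 6.9% and 5.27% in normoxia. The part of these cells in the results below was not tested. Hypoxic knockout libraries 1, 2 and 3 stood apart, with 395.2, 432.7 and 648.8 CPM summed over 13 mitochondrially encoded genes, against 29.2 to 58.2 CPM in hypoxic knockout libraries 4 to 7. RNA of Y-linked genes was near 0 in hypoxic knockouts 6 and 7, hypoxic control 6 and normoxic controls 3 and 4, against the tag Male. In bulk RNA, fewer cells of a type and less RNA per cell cannot be told apart.

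HIF is a pair of proteins whose alpha subunit is made all the time and destroyed when oxygen is present. The prolyl hydroxylases Egln1, Egln2 and Egln3 use oxygen to mark the alpha subunit, and the ubiquitin ligase subunit Vhl then binds it for destruction; when oxygen falls, the alpha subunit persists and switches on genes for glucose uptake, glycolysis, lactate export and mitophagy. Oxygen thus acts mainly on the protein of Hif1a and Epas1, which RNA does not measure. In the brain, astrocytes are known for active glycolysis and for exporting lactate.

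More of the 38 genes were called between genotypes than between oxygen levels. Each comparison below comes from 1 edgeR quasi-likelihood fit of all 19 libraries, and a gene was called at a Benjamini-Hochberg adjusted p under 0.05 over all 19854 genes. In hypoxic knockouts against hypoxic controls 16 of the 38 rose and 5 fell, beside 10.4% of all genes tested called higher and 9.37% called lower. In normoxic knockouts against normoxic controls 9 rose and 3 fell, beside 6.9% and 5.27% of all genes. In hypoxic against normoxic knockouts 6 rose and 2 fell, beside 4.76% and 7.77% of all genes. In hypoxic against normoxic controls none of the 38 was called, beside 0.00504% of all genes called higher and 0.0806% called lower; 7 of the 38 had an unadjusted p under 0.05, DESeq2 called 2 and limma-voom 3. The interaction, which asks whether the effect of 12% oxygen differed between knockouts and controls, called none of the 38 with edgeR, 1 with DESeq2 and none with limma-voom, beside 0.0101% of all genes higher and 0% lower with edgeR; 7 of the 38 had an unadjusted p under 0.05. A difference in effect between the genotypes was therefore not detected for any of them with edgeR.

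The median log2 fold change of the 38 genes was 0.18 in hypoxic knockouts against hypoxic controls, where that of all genes was 0.01. It was 0.13 in normoxic knockouts against normoxic controls (all genes -0.01), 0.13 in hypoxic against normoxic knockouts (0.02) and 0.05 in hypoxic against normoxic controls (0.00 after rounding). Comparisons that have a group in common share its libraries, such as the hypoxic knockouts.

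**Figure D1:**
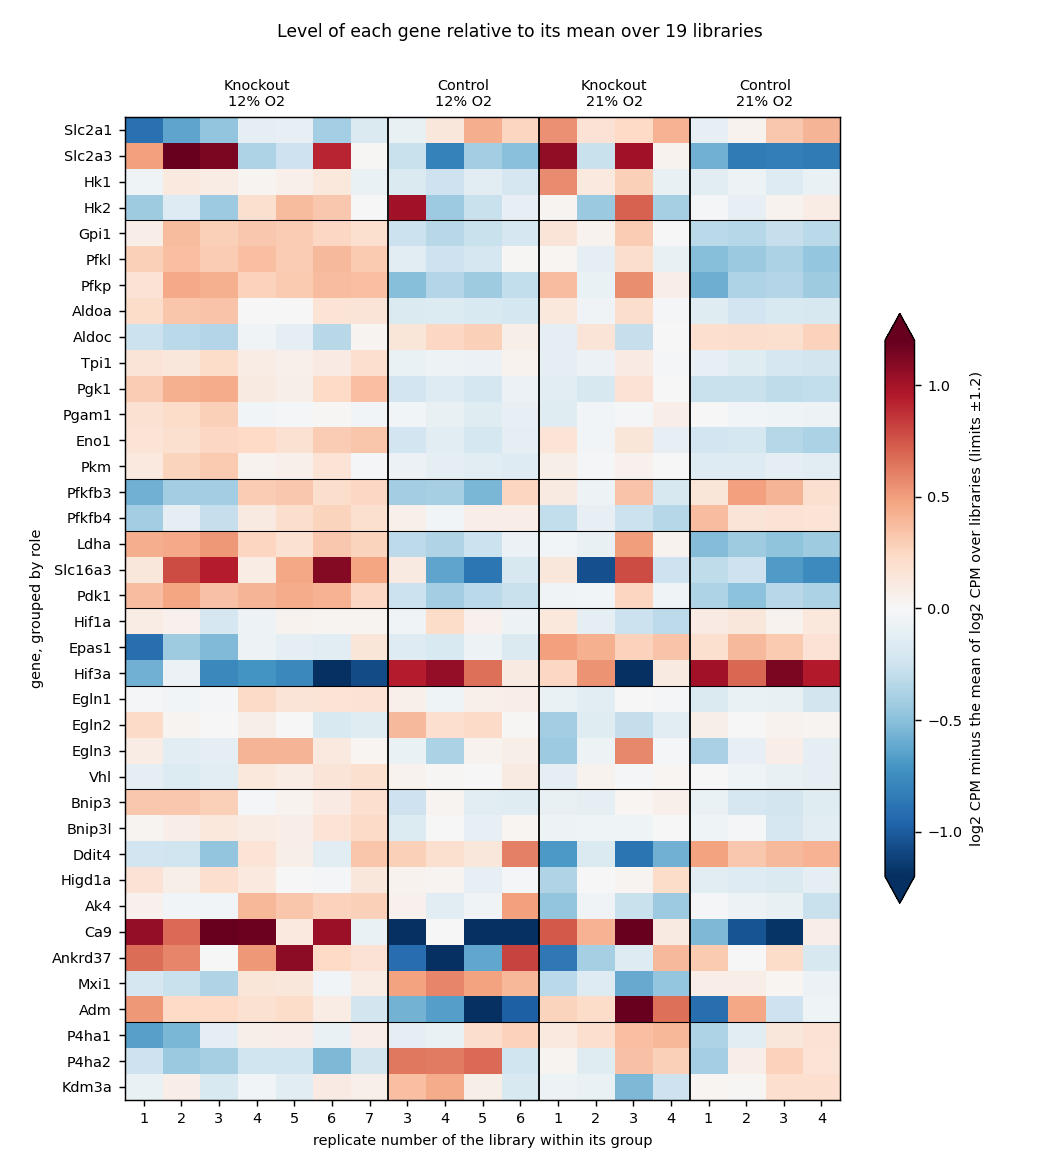
Each cell is the log2 CPM of a gene (rows, grouped by role) in a library (columns, numbered as in the labels) minus that gene's mean over the 19 libraries; colour runs from blue, below the mean, to red, above it, and saturates at ±1.2. Gpi1, Pfkl, Pfkp, Ldha and Pdk1 are redder in the 7 hypoxic and 4 normoxic knockout libraries than in controls at the same oxygen level, and Hif3a and Mxi1 are bluer there.

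**Figure D2:**
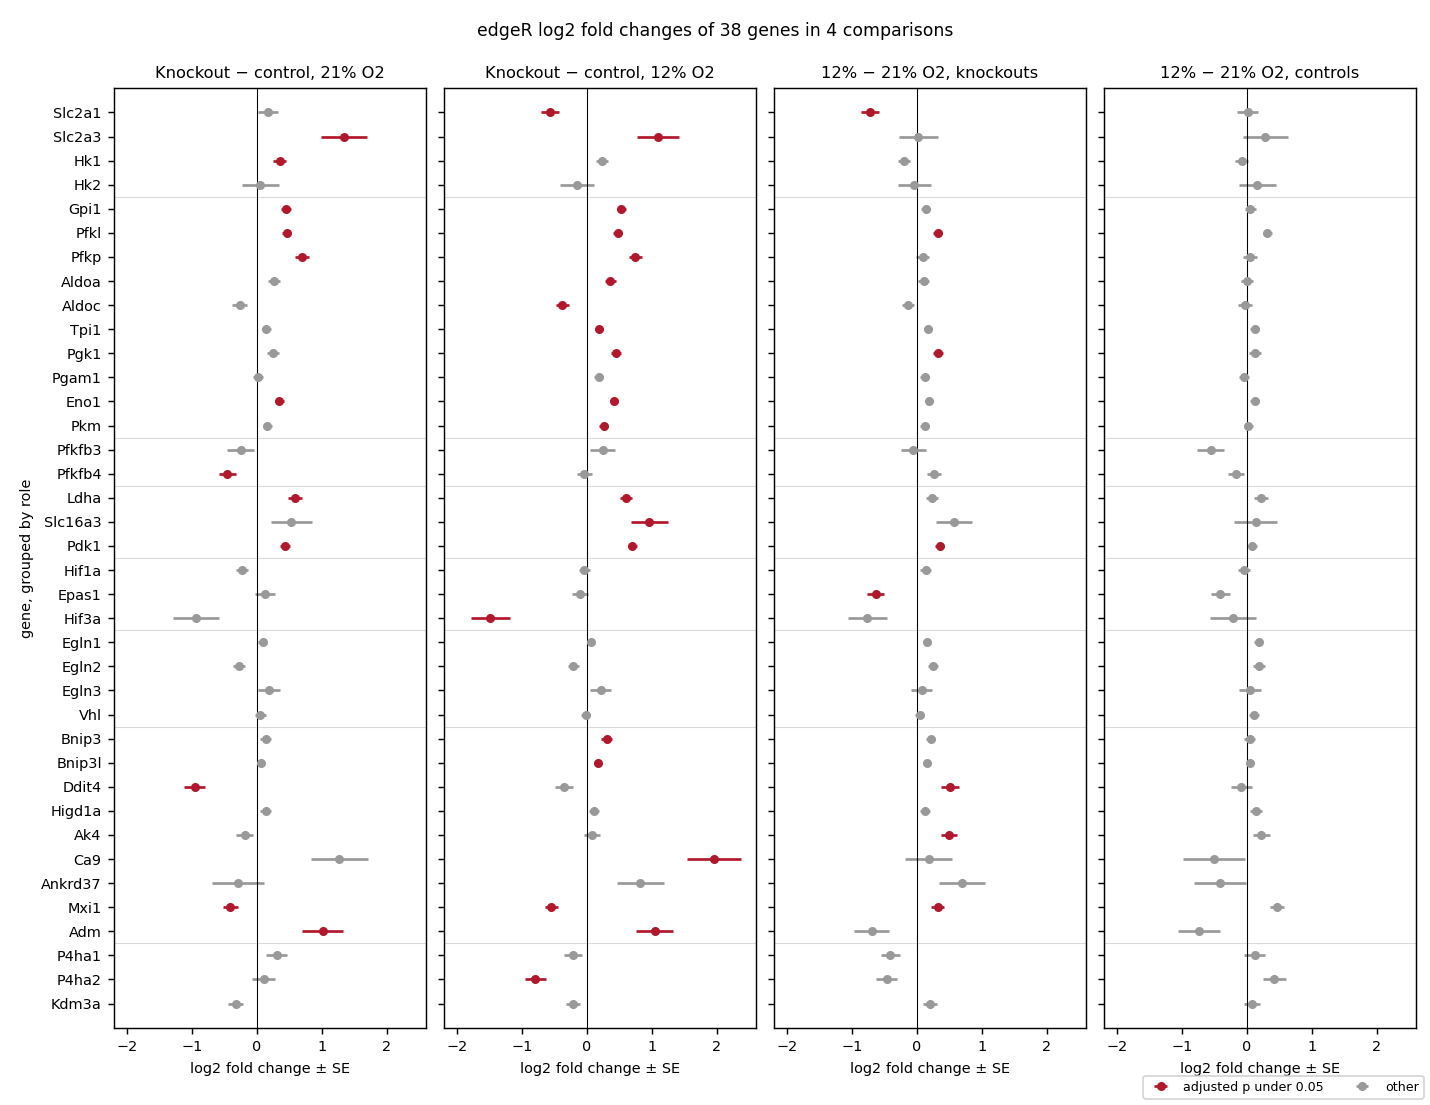
Points are edgeR log2 fold changes with bars of 1 SE for the 38 genes in 4 comparisons; red marks an adjusted p under 0.05. Red points are many in both knockout panels (21 at 12% oxygen, 12 at 21%), fewer between oxygen levels in knockouts (8), and absent in controls.

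HIF binds DNA at a core of 5 bases, ACGTG or GCGTG, and the stretches before the members' start sites were read for it. RefSeq promoters of the GRCm38.p6 build, each with 250 bases before and 50 after a start site, were listed for 35 of the 38 genes; Slc2a3, Epas1 and Bnip3l had no entry. Of 53 listed promoters of these genes, 81.1% held a match on either strand, where 43.8% of all 32851 promoters did; for ACGTG alone the shares were 50.9% and 19.6%. The core contains CG, and the members' promoters had a median GC content of 64.7% and 24 CG dinucleotides, where all promoters had 52.7% and 7. A match is a string of letters and not a measured site. The first listed promoters of 4 genes that changed and of Gpi1, which rose with no match in the window, are shown 5′ to 3′ on the gene's strand, with matches on either strand in capitals. Ldha has the most matches of any member's promoter, 7, because each CACGTG there counts once per strand. Its matches begin at -145, -144, -48, -47, -34, 25 and 37 from the start site, those of Pdk1 at -78 and -2, those of Pgk1 at -150 and -131, and those of Slc2a1 at -61 and -36.
Ldha, chr7:46845554-46845853, plus strand: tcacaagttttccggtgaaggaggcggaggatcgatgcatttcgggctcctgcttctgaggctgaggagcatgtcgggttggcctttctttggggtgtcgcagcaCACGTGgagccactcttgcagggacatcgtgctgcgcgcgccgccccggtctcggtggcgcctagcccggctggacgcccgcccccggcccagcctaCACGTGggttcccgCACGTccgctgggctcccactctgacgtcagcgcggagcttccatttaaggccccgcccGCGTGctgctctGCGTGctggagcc
Pdk1, chr2:71872974-71873273, plus strand: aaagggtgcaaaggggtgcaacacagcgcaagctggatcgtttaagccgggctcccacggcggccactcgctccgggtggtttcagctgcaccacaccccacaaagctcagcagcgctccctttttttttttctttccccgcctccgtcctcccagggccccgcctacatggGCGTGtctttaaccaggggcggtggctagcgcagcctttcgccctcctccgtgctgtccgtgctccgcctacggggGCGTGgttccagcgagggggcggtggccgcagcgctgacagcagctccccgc
Pgk1, chrX:106186850-106187149, plus strand: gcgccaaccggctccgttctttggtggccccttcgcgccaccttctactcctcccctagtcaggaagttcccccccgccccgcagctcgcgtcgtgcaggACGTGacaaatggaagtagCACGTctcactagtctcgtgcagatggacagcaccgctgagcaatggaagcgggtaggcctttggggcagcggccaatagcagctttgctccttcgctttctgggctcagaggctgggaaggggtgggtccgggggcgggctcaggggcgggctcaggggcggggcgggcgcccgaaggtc
Slc2a1, chr4:119108495-119108794, plus strand: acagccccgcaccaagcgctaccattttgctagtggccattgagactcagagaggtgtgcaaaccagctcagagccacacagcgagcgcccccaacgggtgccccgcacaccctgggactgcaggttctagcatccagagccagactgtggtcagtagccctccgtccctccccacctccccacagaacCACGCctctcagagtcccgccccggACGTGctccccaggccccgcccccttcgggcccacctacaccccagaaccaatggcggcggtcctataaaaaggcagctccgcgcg
Gpi1, chr7:34230287-34230586, minus strand: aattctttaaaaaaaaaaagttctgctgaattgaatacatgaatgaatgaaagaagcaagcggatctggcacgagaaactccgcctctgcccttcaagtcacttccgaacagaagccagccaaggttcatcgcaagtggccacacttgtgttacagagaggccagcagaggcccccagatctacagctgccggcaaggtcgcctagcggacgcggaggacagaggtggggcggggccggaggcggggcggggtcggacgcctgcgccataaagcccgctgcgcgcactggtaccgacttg
In all, 32 of the 35 genes had a match in some listed promoter, and Gpi1, Tpi1 and Vhl had none.

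Levels per length, which allow genes to be compared, spanned several orders of magnitude in the authors' RPKM. Aldoc, the aldolase of astrocytes, was highest at a median of 3823 RPKM over the 19 libraries (range 3092 to 4430), above Aldoa at 835.9 RPKM (724.1 to 1172). The glycolytic genes Tpi1, Pkm, Pgam1, Gpi1, Pgk1, Ldha and Eno1 had medians between 122.6 and 285.2 RPKM. Of the glucose transporters, Slc2a1 had a median of 23.2 RPKM and the neuronal Slc2a3 one of 2.947 RPKM. Of the hexokinases, Hk1 had 40.23 RPKM and Hk2 1.03 RPKM, and their ranges over libraries did not overlap. Of the HIF alpha subunits, Epas1 was highest at 136 RPKM (84.87 to 187.8), then Hif1a at 15.29 RPKM (11.75 to 17.82) and Hif3a at 6.067 RPKM (1.677 to 12.19); the ranges of Hif1a and Hif3a overlapped. Among the hydroxylases, Egln1 had a median of 41.07 RPKM and Egln2 33.34 RPKM, with overlapping ranges, and Egln3 11.2 RPKM. Ca9, Slc16a3, P4ha2 and Ankrd37 lay under a median of 1 RPKM.

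**Figure D3:**
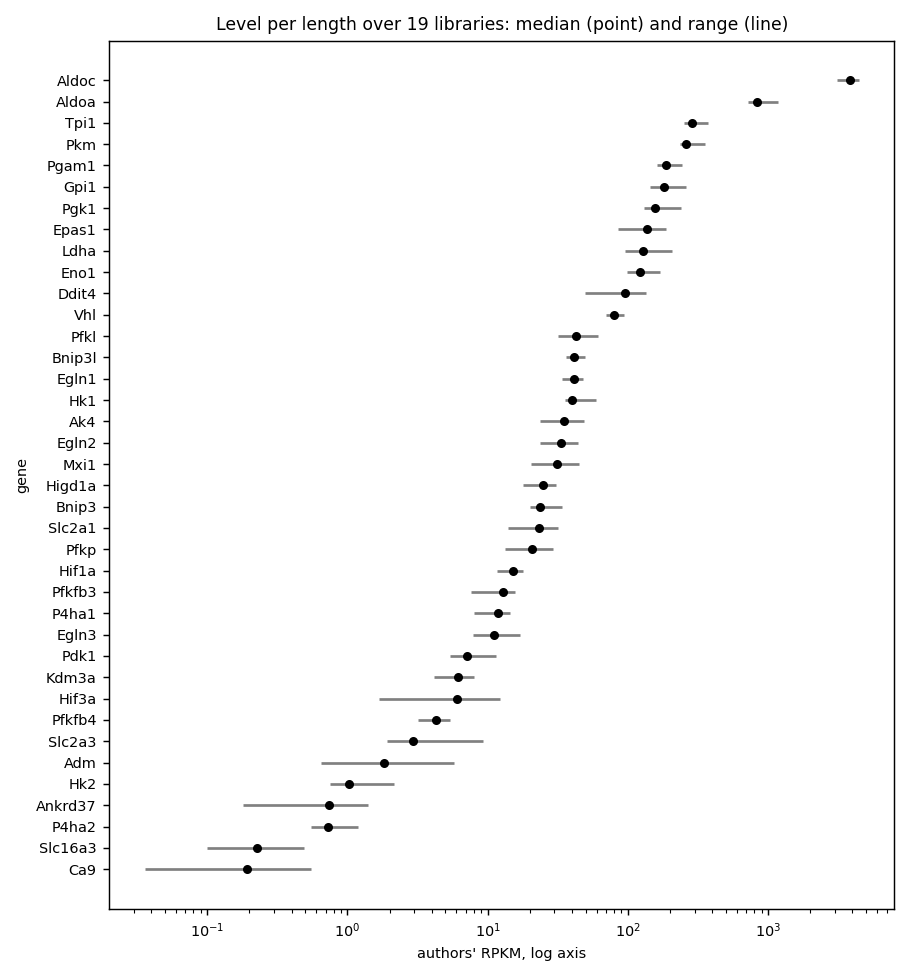
Points are the median of the authors' RPKM over 19 libraries and lines run from the lowest to the highest library, on a log axis, for the 38 genes in order of their median. Aldoc stands at the top (3092 to 4430 RPKM) and Ca9 at the bottom (0.03613 to 0.5521 RPKM).

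The change with the smallest adjusted p among the members was in RNA of a gene that acts on pyruvate's fate. Pdk1 (ENSMUSG00000006494), a kinase that switches off pyruvate dehydrogenase, ranged over 71.2 to 83.2 CPM in hypoxic knockouts (median 79.6), against 50.1, 45.1, 47.9 and 49.9 CPM in hypoxic controls. At 21% oxygen the knockouts had 58.4, 58.7, 72 and 58.2 CPM, against 46.5, 42.8, 47.7 and 46.2 CPM in normoxic controls. No knockout library overlapped the controls of the same oxygen level. The log2 fold change was 0.70 ± 0.07 (SE) in hypoxia (adjusted p = 3.51e-06) and 0.43 ± 0.07 in normoxia (adjusted p = 0.00133). Between oxygen levels Pdk1 rose in knockouts, with overlapping groups, by 0.35 ± 0.07 (adjusted p = 0.00455), and differed by 0.08 ± 0.07 in controls (adjusted p = 0.834). The interaction was 0.27 ± 0.10 (unadjusted p = 0.0121, adjusted p = 0.342), so a larger effect of 12% oxygen in knockouts was not detected after adjustment.

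Ldha (ENSMUSG00000063229), the lactate dehydrogenase subunit that favours lactate, had 510.6 to 646.7 CPM in hypoxic knockouts (median 564.1), against 361.8, 350.5, 376.6 and 430.1 CPM in hypoxic controls. The normoxic knockouts had 442.2, 422.7, 639.5 and 463.1 CPM, against 315.3, 336, 323.4 and 335.4 CPM in normoxic controls. Knockouts lay above controls at both oxygen levels, with replicate 3 of the normoxic knockouts far above the other 3. For Ldha the log2 fold change was 0.60 ± 0.10 in hypoxia (adjusted p = 0.000664) and 0.59 ± 0.11 in normoxia (adjusted p = 0.00329). Slc16a3, the lactate exporter MCT4, was near the limit of detection, with 33 to 156 counts a library. It had 1.24 to 2.5 CPM in hypoxic knockouts (median 1.62), against 1.26, 0.754, 0.64 and 1.02 CPM in hypoxic controls, which overlap. Its log2 fold change of 0.96 ± 0.29 (adjusted p = 0.027) was not called without hypoxic knockouts 3 or 6 (0.90 and 0.86), without hypoxic controls 4, 5 or 6 (0.82 to 1.01), or without hypoxic knockouts 1 to 3 together (0.92, adjusted p = 0.0938).

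The other genes of the pyruvate dehydrogenase complex and its kinases and phosphatases went down where they were called: 4 of 10 fell in hypoxic knockouts against controls and 3 in normoxic ones, and none rose, beside 9.37% and 5.27% of all genes called lower. Without hypoxic knockouts 1 to 3, 4 of the 10 were called lower in hypoxia. Pdp2, a phosphatase that switches the complex back on, fell by 0.76 and 0.67 on the log2 scale in hypoxia and normoxia (SE 0.12 and 0.14; adjusted p = 0.000476 and 0.00666). Pdk2, another kinase of the complex, averaged 472.9 ± 60.6 CPM (SD, n = 7) in hypoxic knockouts and 731.5 ± 77.1 CPM (n = 4) in hypoxic controls (-0.63 ± 0.10, adjusted p = 0.000623), so kinases of the complex moved in opposite directions. Pdk4 was called lower at both oxygen levels, with 66.9 to 92.1 CPM in normoxic knockouts, against 109.9 to 120.6 CPM in normoxic controls (-0.62 ± 0.14, adjusted p = 0.0095), and 65.3 to 112.2 CPM in hypoxic knockouts, against 97 to 118.6 CPM in hypoxic controls. Pdha1, a catalytic subunit, fell slightly in both (-0.20 ± 0.05 and -0.20 ± 0.06; adjusted p = 0.0147 and 0.0316).

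Of the 10 members in the middle and lower steps of glycolysis, 8 rose and 1 fell in hypoxic knockouts against hypoxic controls, and 4 rose in normoxic knockouts against normoxic controls. Of all genes, 10.4% were called higher and 9.37% lower in hypoxia, and 6.9% and 5.27% in normoxia. Pfkp (ENSMUSG00000021196), the platelet type of phosphofructokinase, had the largest change of these, with 302.2 to 366.1 CPM in hypoxic knockouts (median 344.6), against 188.3, 209.9, 198.9 and 218.4 CPM in hypoxic controls. In normoxic knockouts it had 346.9, 253.5, 393.4 and 283.5 CPM, against 178.6, 206.6, 209.6 and 198.5 CPM in normoxic controls. Every knockout library lay above every control. The log2 fold change was 0.74 ± 0.10 in hypoxia (adjusted p = 8.49e-05) and 0.69 ± 0.11 in normoxia (adjusted p = 0.000804).

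Gpi1 (ENSMUSG00000036427), the isomerase of the step before phosphofructokinase, had 1270 to 1566 CPM in hypoxic knockouts (median 1465), against 1002, 950.2, 1000 and 1046 CPM in hypoxic controls. At 21% oxygen the knockouts had 1335, 1232, 1483 and 1207 CPM, against 960.8, 948.6, 988.7 and 956.5 CPM in normoxic controls. The groups did not overlap at either oxygen level, and the log2 fold changes were 0.53 ± 0.07 in hypoxia and 0.45 ± 0.08 in normoxia (adjusted p = 8.84e-05 and 0.00166). Between oxygen levels its groups overlapped in both genotypes.

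Pfkl (ENSMUSG00000020277), the liver type of phosphofructokinase, differed with both knockout and oxygen. It had 365.5 to 392.5 CPM in hypoxic knockouts (median 371.5), against 273.8, 251.4, 260.9 and 302.9 CPM in hypoxic controls. The normoxic knockouts had 304.8, 276.6, 345.9 and 282 CPM, against 210.3, 220.1, 230.3 and 216.7 CPM in normoxic controls. No group pair among knockout against control, or 12% against 21% oxygen, overlapped. The log2 fold change with knockout was 0.47 ± 0.07 in hypoxia (adjusted p = 0.000144) and 0.46 ± 0.07 in normoxia (adjusted p = 0.000914). The log2 difference between 12% and 21% oxygen was 0.32 ± 0.07 in knockouts (adjusted p = 0.00668) and 0.31 ± 0.07 in controls (adjusted p = 0.155; called by DESeq2 and limma-voom), and the interaction was 0.01 ± 0.10.

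Eno1, Pgk1 and Aldoa rose in hypoxic knockouts without overlap with hypoxic controls. Eno1, the enolase of non-neuronal cells, had 794.8 to 892.2 CPM in hypoxic knockouts (median 839.6), against 603.8, 648.3, 613.3 and 656.4 CPM in hypoxic controls (0.41 ± 0.06, adjusted p = 0.000387), and 793.1, 693.9, 783 and 664.7 CPM in normoxic knockouts, against 603.9, 613.5, 560.7 and 546 CPM in normoxic controls (0.34 ± 0.07, adjusted p = 0.0067). Pgk1, which makes the first ATP of the pathway, had 393 to 510.4 CPM in hypoxic knockouts (median 462.8), against 319.7, 335.8, 323 and 356.3 CPM in hypoxic controls (0.45 ± 0.08, adjusted p = 0.00114). Pgk1 was also higher in hypoxic than in normoxic knockouts, which overlap (0.32 ± 0.08, adjusted p = 0.0165), a call lost without normoxic knockout 1 or 2 (0.29 and 0.27) and without hypoxic knockouts 1 to 3 (0.22, adjusted p = 0.0912). Aldoa had 2518 to 3213 CPM in hypoxic knockouts (median 2831), against 2244, 2256, 2229 and 2184 CPM in hypoxic controls (0.36 ± 0.08, adjusted p = 0.00437). With replicate numbers as blocks it was 0.31 ± 0.10 and not called (adjusted p = 0.0702). Here and below, blocks in hypoxia keep only numbers found in both groups, which leaves out hypoxic knockouts 1, 2 and 7. In normoxia both Pgk1 and Aldoa were higher in every knockout than in any control and missed the threshold. Pgk1 had 340.7, 327.7, 420.9 and 372.5 CPM in normoxic knockouts, against 311.6, 311, 302.1 and 304.6 CPM in normoxic controls (0.25 ± 0.09, adjusted p = 0.0749). Aldoa had 2767, 2463, 2932 and 2499 CPM in normoxic knockouts, against 2287, 2164, 2234 and 2222 CPM in normoxic controls (0.26 ± 0.09, adjusted p = 0.0584). DESeq2 and limma-voom called both, as did fits without hypoxic knockouts 1 to 3, without normoxic knockout 2 (0.30 and 0.29) or without hypoxic knockout 5 (0.27 and 0.28); Aldoa was also called with RLE scaling and without hypoxic knockout 2, 3 or 4 (0.26 each).

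Pkm, the last enzyme of glycolysis, and Tpi1 rose less. Pkm had 1323 to 1678 CPM in hypoxic knockouts (median 1463), against 1282, 1251, 1223 and 1211 CPM in hypoxic controls (0.26 ± 0.07, adjusted p = 0.0132). Tpi1 had 857.7 to 960.1 CPM in hypoxic knockouts (median 900.8), against 779.1, 787.1, 782.3 and 846.5 CPM in hypoxic controls (0.18 ± 0.06, adjusted p = 0.0377). Neither group pair overlapped. In normoxia Pkm had 1412, 1325, 1399 and 1340 CPM in knockouts, against 1214, 1211, 1241 and 1230 CPM in controls (0.16 ± 0.07, adjusted p = 0.163; 0.17 and called without hypoxic knockouts 1 to 3). Tpi1 had 757.8, 782.1, 878.6 and 806.6 CPM in normoxic knockouts, against 766, 744.7, 714.6 and 706.3 CPM in normoxic controls, which overlap (0.14 ± 0.07, adjusted p = 0.175, called by DESeq2 and limma-voom). In hypoxia, without knockouts 1 to 3, neither was called (0.18 and 0.15, adjusted p = 0.0568 and 0.127), nor with blocks (adjusted p = 0.0722 and 0.206), and the call of Tpi1 was lost when any 1 of 9 libraries was left out. Pgam1 was called in no comparison and ranged over 341.8 to 460 CPM; in hypoxic knockouts against hypoxic controls (0.18 ± 0.07, adjusted p = 0.0729) it was called by DESeq2 and without hypoxic knockout 4 or 7 (0.20 each).

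Aldoc (ENSMUSG00000017390), the most abundant member, went the other way. It had 9584 to 12526 CPM in hypoxic knockouts (median 10240), against 13562, 14554, 14967 and 12806 CPM in hypoxic controls, and every knockout library lay below every control. For Aldoc the log2 fold change was -0.38 ± 0.10 (adjusted p = 0.0108), and -0.30 without hypoxic knockouts 1 to 3, when it was not called (adjusted p = 0.0608). In normoxia the value was -0.27 ± 0.11 (adjusted p = 0.111, called by limma-voom), and -0.35 and called without normoxic knockout 2 (adjusted p = 0.0451). Aldoc is itself an astrocyte gene, and 5 of 11 astrocyte markers fell and 2 rose in the same hypoxic comparison; the part of that in the result was not tested. Near-identical copies share reads with several of these genes and make their levels uncertain: Eno1b held 10.8% of the counts of Eno1 and itself, Pgam1-ps2 9.06% with Pgam1, Pgk1-ps1 5.56% with Pgk1, Aldoart1 3.11% with Aldoa and Ldha-ps2 2.35% with Ldha.

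RNA of the glucose transporters Slc2a1 and Slc2a3 moved in opposite directions with knockout in hypoxia. Slc2a1 (ENSMUSG00000028645), GLUT1, the transporter of the blood-brain barrier and of astrocytes, had 43.5 to 75.5 CPM in hypoxic knockouts (median 61.1), against 75.9, 88.8, 109.4 and 96.6 CPM in hypoxic controls. In normoxic knockouts it had 118.7, 91.5, 95.3 and 108.1 CPM, against 75.7, 83.5, 101.4 and 107.5 CPM in normoxic controls. Hypoxic knockouts lay below each of the other groups, whereas the other groups overlapped each other. Slc2a1 fell in hypoxic knockouts against hypoxic controls (-0.57 ± 0.14, adjusted p = 0.00983) and against normoxic knockouts (-0.73 ± 0.14, adjusted p = 0.00505). The differences in normoxic knockouts against normoxic controls (0.17 ± 0.16) and in hypoxic against normoxic controls (0.01 ± 0.16) were not called, nor was the interaction (-0.74 ± 0.21, unadjusted p = 0.00275, adjusted p = 0.292). Its lowest values were in hypoxic knockouts 1, 2 and 3 (43.5, 52.2 and 58.4 CPM), and without these the fall against hypoxic controls was -0.39 and not called (adjusted p = 0.07), while the fall against normoxic knockouts was still called. Summed endothelial markers other than Slco1c1 (8 genes) were 17.5 to 28 CPM in hypoxic knockouts, 16.5 to 31.9 in hypoxic controls, 27.2 to 64.1 in normoxic knockouts and 12.1 to 29.8 in normoxic controls. Slco1c1, whose promoter drives the Cre, went another way: 255.7 to 491 CPM in hypoxic knockouts, 94.1 to 126.8 in hypoxic controls, 193.9 to 475.7 in normoxic knockouts and 607.8 to 837.5 in normoxic controls, so it was called higher with knockout in hypoxia and lower in normoxia. In hypoxic knockouts against hypoxic controls 5 of 11 astrocyte markers were called lower and 2 higher, and of 9 endothelial markers 0 and 2. Against normoxic knockouts 5 astrocyte and 4 endothelial markers were called lower and 0 higher. Of all genes, 9.37% and 7.77% were called lower in these comparisons. The part of endothelial or astrocyte RNA in the values of Slc2a1 was not tested.

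Slc2a3 (ENSMUSG00000003153), GLUT3, had 19.8 to 63.3 CPM in hypoxic knockouts (median 36), against 21.2, 14.5, 19.1 and 18 CPM in hypoxic controls. At 21% oxygen the knockouts had 53.4, 21.2, 51.3 and 26.2 CPM, against 17.1, 14.2, 14.4 and 14.2 CPM in normoxic controls. The spread among knockouts was wide, with groups overlapping in hypoxia and apart in normoxia. The log2 fold change was 1.09 ± 0.32 in hypoxia (adjusted p = 0.0241) and 1.34 ± 0.35 in normoxia (adjusted p = 0.0202). In hypoxia the call was lost without control 4, 5 or 6 (0.99 to 1.11) and without knockouts 1 to 3 (0.66, adjusted p = 0.205), and in normoxia without knockout 1 or 3 (1.13 and 1.17) or control 2, 3 or 4 (1.32 to 1.33). Neuronal RNA moved with it by library: 8 neuron markers summed to 4075, 3908, 2873 and 2560 CPM in hypoxic knockouts 2, 3, 1 and 6, where Slc2a3 had 63.3, 56, 36 and 48.1 CPM, and to 1070 to 1450 CPM in hypoxic knockouts 4, 5 and 7, where it had 19.8 to 25.7 CPM. The same markers summed to 892.8 to 1330 CPM in hypoxic controls. In normoxia they summed to 2631 and 1922 CPM in knockouts 1 and 3, where Slc2a3 was highest, to 1145 and 1476 CPM in knockouts 2 and 4, and to 769.7 to 1131 CPM in controls. Neuron markers were called higher for 6 of 8 genes in hypoxia and 3 of 8 in normoxia. Without hypoxic knockouts 1 to 3 none was called in hypoxia, but their median log2 fold change was still 0.55, against 1.07 with all libraries. The part of neuronal RNA in the changes of Slc2a3 and the glycolytic genes was not tested. Without those 3 libraries, 14 of the 38 genes were called in hypoxia (11 higher, 3 lower), among them Pdk1, Ldha, Gpi1, Pfkl, Pfkp, Eno1, Pgk1 and Aldoa. The share of all genes called in that fit is not given here. Hypoxic knockout 6, with 2560 CPM of neuron markers, stayed in it.

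Hk1, the main hexokinase of brain, had 539.4, 395.2, 444.6 and 342.9 CPM in normoxic knockouts, against 334.5, 348.8, 327.3 and 344.9 CPM in normoxic controls, which overlap. Its log2 fold change of 0.35 ± 0.10 (adjusted p = 0.0286) fell to 0.22 and was not called without normoxic knockout 1, and it was not called without normoxic knockout 3 or any single normoxic control either (0.33 to 0.36). In hypoxia every knockout lay above every control (0.23 ± 0.09, adjusted p = 0.0689), and with replicate blocks Hk1 was called (0.27 ± 0.07, adjusted p = 0.0402). DESeq2 and limma-voom called it there too, as did fits with the 1 CPM filter, of the 2 groups alone, and without normoxic knockout 1 or 4. Hk2 was called in no comparison and ranged over 4.69 to 12.8 CPM. Of 20 other glycolytic enzymes and transporters, 3 rose and 1 fell in hypoxic knockouts against hypoxic controls, and 1 rose and 1 fell in normoxic knockouts against normoxic controls, where 10.4% and 9.37% of all genes were called higher and lower in hypoxia and 6.9% and 5.27% in normoxia. Without hypoxic knockouts 1 to 3, none of the 20 was called higher in hypoxia and 1 lower. Those called in hypoxia with all libraries included the neuronal enolase Eno2 (1.25 ± 0.35 in hypoxia, adjusted p = 0.0187), the lactate and pyruvate transporter Slc16a7 (1.16 ± 0.29, adjusted p = 0.0112) and Pgm1, which links glucose 6-phosphate to glycogen (-0.69 ± 0.10, adjusted p = 0.000265). Of 8 glycogen enzymes, 3 fell in hypoxic knockouts against hypoxic controls and none rose, among them Pygm, a glycogen phosphorylase (-0.46 ± 0.10, adjusted p = 0.00585), and none was called in normoxia. Without hypoxic knockouts 1 to 3, 1 of the 8 fell in hypoxia, and the median log2 fold change was -0.10, where it was -0.24 with them.

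**Figure D4:**
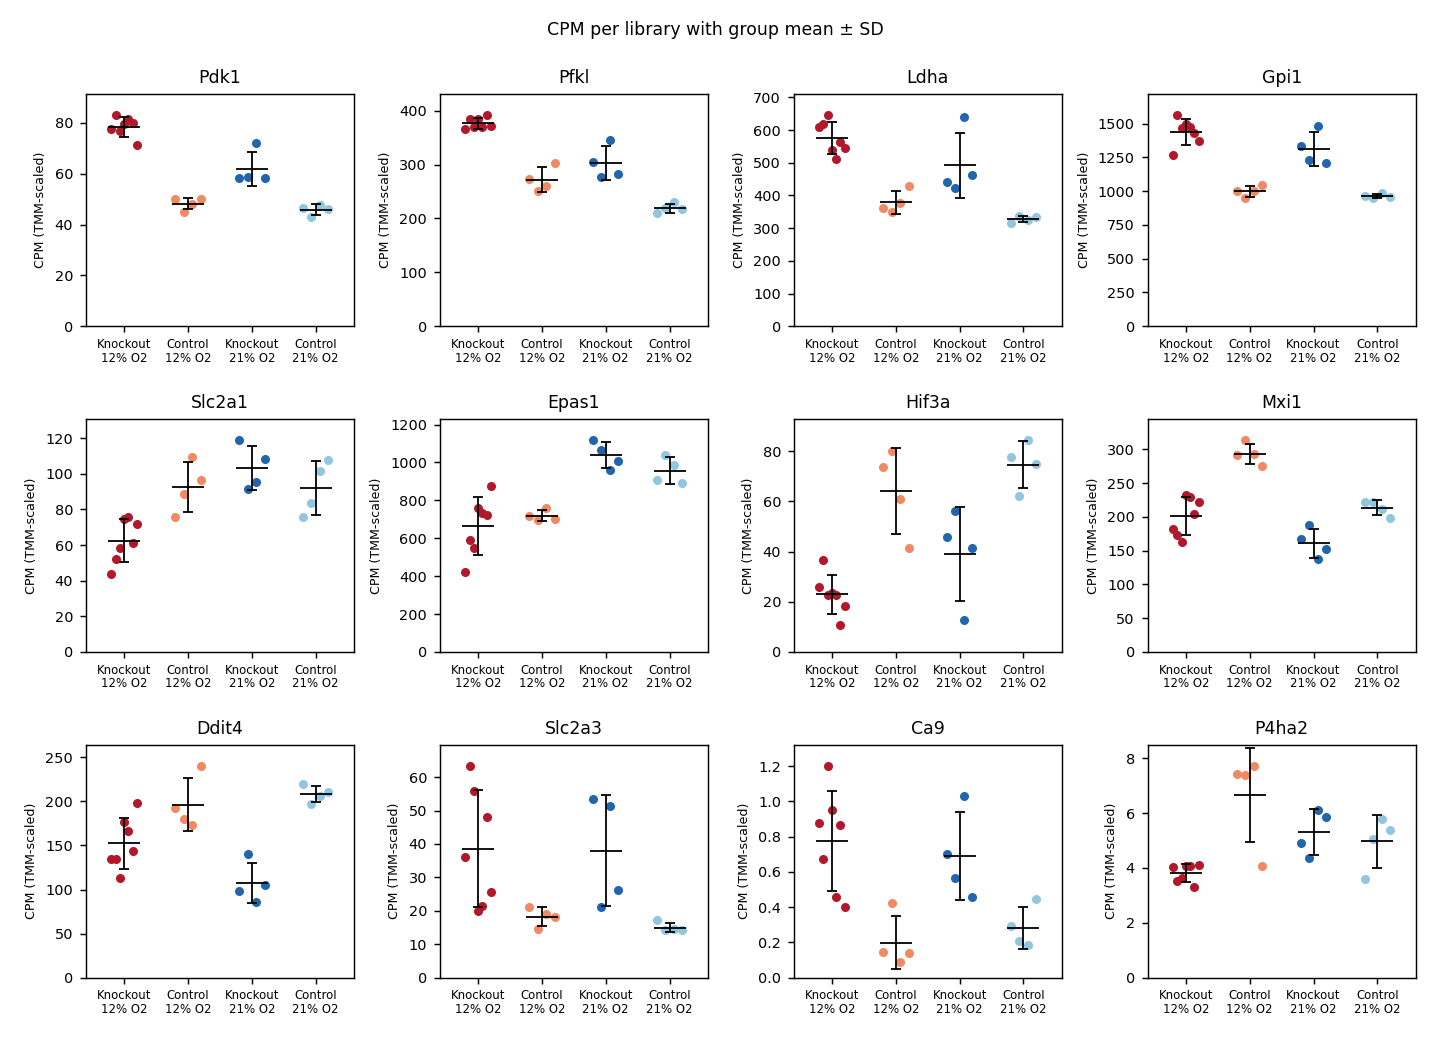
CPM of 12 genes in every library (points), with the group mean and 1 SD (bars), for knockouts and controls at 12% and 21% oxygen; each axis starts at 0. Pdk1, Pfkl, Ldha and Gpi1 are higher in knockouts than in controls at the same oxygen level with no overlap, Slc2a1 is lowest in hypoxic knockouts (43.5 to 75.5 CPM), and Ddit4 in normoxic knockouts (86.2 to 140.1 CPM) lies below normoxic controls.

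Pfkfb4 and Pfkfb3 make and break fructose 2,6-bisphosphate, which speeds phosphofructokinase. Pfkfb4 had 16.4, 18.8, 16.9 and 15.9 CPM in normoxic knockouts, against 26.1, 22.4, 22.7 and 22.6 CPM in normoxic controls, with every knockout below every control (-0.46 ± 0.13, adjusted p = 0.0232). The call was lost without normoxic knockout 1, 3 or 4 or normoxic control 1 (-0.41 to -0.46). In hypoxia the groups overlapped (-0.04 ± 0.11). Pfkfb3 was called in none of the comparisons, although its levels fell into separate sets among hypoxic libraries, which are given below.

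Of the HIF alpha subunits, Hif1a was called in no comparison. It had 77.1 to 94 CPM in hypoxic knockouts (median 90.6), against 85.6, 103.3, 91.7 and 84.5 CPM in hypoxic controls, and 96.8, 81.4, 74 and 71.2 CPM in normoxic knockouts, against 94.5, 97.1, 91.1 and 96.2 CPM in normoxic controls. Each of these group pairs overlapped. Without normoxic knockout 1, Hif1a was called lower in normoxic knockouts than in normoxic controls (-0.33, adjusted p = 0.0206), and limma-voom called it there with all libraries. Epas1 (ENSMUSG00000024140), which encodes HIF-2 alpha, differed with oxygen. It had 424.3 to 877.6 CPM in hypoxic knockouts (median 724.7), against 1116, 1067, 961.8 and 1006 CPM in normoxic knockouts, and 714.9, 698.6, 759.6 and 702.6 CPM in hypoxic controls, against 907.2, 1040, 987.6 and 892.8 CPM in normoxic controls. In both genotypes every hypoxic library lay below every normoxic one. Epas1 fell in knockouts (-0.64 ± 0.13, adjusted p = 0.00675). In controls the value was -0.41 ± 0.15 (adjusted p = 0.4; called when these 2 groups were fitted alone and when hypoxic knockouts 1 to 3 were left out). Its lowest levels were in hypoxic knockouts 1, 2 and 3 (424.3, 592 and 548.2 CPM), and without these the fall in knockouts was still called. Between oxygen levels in knockouts, 5 of 11 astrocyte and 4 of 9 endothelial markers were called lower and none higher, beside 7.77% of all genes called lower. In controls 0 astrocyte markers and 1 endothelial marker, Slco1c1, were called lower. The median log2 fold change of the 9 endothelial markers there was -0.05. The part of these cells in the values of Epas1 was not tested.

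Hif3a (ENSMUSG00000004328), whose short products are known to oppose the other alpha subunits, had 10.8 to 36.7 CPM in hypoxic knockouts (median 22.6), against 73.9, 80.2, 61 and 41.5 CPM in hypoxic controls. The normoxic knockouts had 45.7, 56.1, 12.7 and 41.5 CPM, against 77.6, 62, 84.3 and 74.8 CPM in normoxic controls. Knockouts lay below controls at both oxygen levels. For Hif3a the log2 fold change was -1.49 ± 0.30 in hypoxia (adjusted p = 0.00296) and -0.94 ± 0.35 in normoxia, where it was not called by edgeR (adjusted p = 0.0868) and was called by DESeq2, by limma-voom and without normoxic knockout 2 (-1.17). The 3 hydroxylases and Vhl were called in no comparison. Egln1 ranged over 125.6 to 171 CPM. Egln2 had an adjusted p of 0.0507 both in normoxic knockouts against normoxic controls (-0.28 ± 0.09) and in hypoxic against normoxic knockouts (0.25 ± 0.08), and was called in the first when any 1 of 6 libraries was left out (-0.32 to -0.28) and in the second for any 1 of 4 (0.25 to 0.28). DESeq2 called Egln2 in both, and limma-voom in the first and in hypoxic knockouts against hypoxic controls. Egln3 ranged over 22.5 to 45.3 CPM and Vhl over 215.7 to 276 CPM. Of 19 other genes of the HIF pathway and of oxygen sensing, 3 rose and 1 fell in each knockout comparison (2 and 0 in hypoxia without hypoxic knockouts 1 to 3). Of all genes, 10.4% were called higher and 9.37% lower in hypoxia, and 6.9% and 5.27% in normoxia. Among the 19 was Rgs5, whose protein is a substrate of the oxygen sensor Ado and which is also a pericyte marker (2.19 ± 0.30 in hypoxia, adjusted p = 0.000122). Jmjd6, a hydroxylase that uses oxygen, was higher in hypoxic than in normoxic knockouts (0.58 ± 0.08, adjusted p = 0.000558).

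Mxi1 (ENSMUSG00000025025), a repressor that opposes Myc, fell with knockout at both oxygen levels. It had 162.7 to 232.1 CPM in hypoxic knockouts (median 204), against 291.5, 313.1, 292.3 and 275.7 CPM in hypoxic controls, and 166.7, 188.2, 137.5 and 151.7 CPM in normoxic knockouts, against 221.4, 221.7, 212.2 and 198.9 CPM in normoxic controls. Neither knockout group overlapped its controls. The log2 fold change was -0.55 ± 0.10 in hypoxia (adjusted p = 0.00113) and -0.41 ± 0.11 in normoxia (adjusted p = 0.0249); the normoxic call was lost without knockout 3 or 4 or control 1, 2 or 3 (-0.34 to -0.41). Between oxygen levels Mxi1 went the other way. Hypoxic controls lay above normoxic controls without overlap (0.46 ± 0.11, adjusted p = 0.167; called by DESeq2 and limma-voom, when these 2 groups were fitted alone and without hypoxic knockouts 1 to 3), and hypoxic knockouts were higher than normoxic knockouts, with overlap (0.32 ± 0.10, adjusted p = 0.0442), a call lost when any 1 of 15 libraries was left out (0.25 to 0.34).

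Ddit4 (ENSMUSG00000020108), which restrains mTOR signalling, had 97.8, 140.1, 86.2 and 105.6 CPM in normoxic knockouts, against 219.8, 197.4, 206.4 and 210.4 CPM in normoxic controls. It had 113.3 to 198.2 CPM in hypoxic knockouts (median 143.8), against 192, 180, 173.1 and 240.1 CPM in hypoxic controls. The groups were apart in normoxia and overlapped in hypoxia. Ddit4 fell in normoxic knockouts (-0.96 ± 0.16, adjusted p = 0.00132), and the difference in hypoxia was not called (-0.36 ± 0.14, adjusted p = 0.0721) unless normoxic knockout 2 or hypoxic knockout 4 or 7 was left out (-0.37, -0.40 and -0.44). In knockouts it was higher at 12% than at 21% oxygen, with overlap (0.51 ± 0.14, adjusted p = 0.0288), a call lost without normoxic knockout 1, 3 or 4 (0.41 to 0.49), and the interaction was 0.59 ± 0.21 (unadjusted p = 0.0122, adjusted p = 0.342). Ak4, a mitochondrial adenylate kinase, had 159.3 to 214.5 CPM in hypoxic knockouts (median 197.1), against 117.5, 158.1, 135.2 and 120.4 CPM in normoxic knockouts, with no overlap (0.49 ± 0.12, adjusted p = 0.0149). It was not called without normoxic knockout 1 (0.43, adjusted p = 0.0529).

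The mitophagy receptors Bnip3 and Bnip3l rose in hypoxic knockouts against hypoxic controls. Bnip3 had 53.7 to 68.5 CPM in hypoxic knockouts (median 62.7), against 46, 56.1, 50.2 and 49.3 CPM in hypoxic controls, which overlap (0.30 ± 0.08, adjusted p = 0.0104). It was highest in hypoxic knockouts 1, 2 and 3 (68.3, 68.5 and 66.7 CPM), and was called neither without them (0.20, adjusted p = 0.101) nor with blocks (0.22 ± 0.10, adjusted p = 0.182). Bnip3l had 169.1 to 193.1 CPM in hypoxic knockouts (median 175.4), against 147.3, 164.6, 154.3 and 167.6 CPM in hypoxic controls, with no overlap (0.17 ± 0.05, adjusted p = 0.0308). It was not called with blocks (0.18 ± 0.07, adjusted p = 0.124) or without hypoxic knockout 3 or 6 or hypoxic control 3 or 5 (0.14 to 0.17), and the copy Bnip3l-ps held 16.6% of the counts of both.

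Adm, which encodes the vasodilator adrenomedullin, had 2.27 to 3.81 CPM in hypoxic knockouts (median 3.08), against 1.79, 1.67, 1.09 and 1.34 CPM in hypoxic controls. In normoxic knockouts it had 3.18, 3.09, 9.31 and 4.19 CPM, against 1.41, 3.66, 2.23 and 2.56 CPM in normoxic controls. Groups were apart in hypoxia and overlapped in normoxia, where knockout 3 was far above the rest. For Adm the log2 fold change was 1.04 ± 0.29 in hypoxia (adjusted p = 0.0198), which was not called without hypoxic control 5 or 6 (0.92 and 1.00) or without hypoxic knockouts 1 to 3 (0.92, adjusted p = 0.111). In normoxia it was 1.01 ± 0.31 (adjusted p = 0.0427), and 0.50 and not called without knockout 3 (adjusted p = 0.236). The normoxic call was also lost without normoxic control 1, 3 or 4 (0.81 to 1.03) and without hypoxic knockout 6 or hypoxic control 4 or 6, which leave it at 1.01.

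Ca9, a carbonic anhydrase at the cell surface and a classical HIF target, was barely detected, with 5 to 72 counts a library. It had 0.4 to 1.2 CPM in hypoxic knockouts (median 0.866), against 0.147, 0.421, 0.0865 and 0.141 CPM in hypoxic controls, which overlap by 1 library. At 21% oxygen the knockouts had 0.704, 0.563, 1.03 and 0.455 CPM, against 0.291, 0.205, 0.187 and 0.445 CPM in normoxic controls. The log2 fold change was 1.96 ± 0.42 in hypoxia (adjusted p = 0.00379) and 1.27 ± 0.44 in normoxia (adjusted p = 0.0622, and 0.0363 without hypoxic control 4). DESeq2 and limma-voom called Ca9 in normoxia. With genes under 1 CPM removed it was not tested. Ankrd37 (16 to 106 counts a library) and Higd1a, which protects mitochondria in low oxygen, were called in no comparison and ranged over 0.281 to 2.14 CPM and 57.7 to 86.6 CPM. Hypoxic control 6 had the highest Ankrd37 of the hypoxic controls, 1.78 CPM, and without it Ankrd37 was called higher in hypoxic knockouts than in hypoxic controls (1.54, adjusted p = 0.00321; 0.82 ± 0.36 with it). Red blood cell RNA moved with knockout as well: all 5 erythroid genes were called higher at both oxygen levels, with sums of 25.9 to 132 CPM in hypoxic knockouts, 4.63 to 6.16 in hypoxic controls, 10.1 to 48.5 in normoxic knockouts and 0.899 to 4.33 in normoxic controls, and their part in the low-level members was not tested.

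P4ha2 (ENSMUSG00000018906), a collagen prolyl hydroxylase, had 3.3 to 4.11 CPM in hypoxic knockouts (median 4.05), against 7.42, 7.4, 7.71 and 4.08 CPM in hypoxic controls. Hypoxic control 6 lay among the knockouts, and the other 3 hypoxic controls lay above every other library. The normoxic knockouts had 4.91, 4.35, 6.12 and 5.85 CPM, against 3.61, 5.06, 5.8 and 5.38 CPM in normoxic controls. P4ha2 fell in hypoxic knockouts against hypoxic controls (-0.80 ± 0.16, adjusted p = 0.00226). The interaction was -0.90 ± 0.24 (unadjusted p = 0.00147, adjusted p = 0.256), and -1.07 and called without hypoxic control 6. P4ha1, a sister enzyme, and Kdm3a, a histone demethylase that uses oxygen, were called in no comparison and ranged over 29.4 to 60.7 CPM and 34.1 to 67.5 CPM. Without hypoxic control 6, Kdm3a was called lower in knockouts at both oxygen levels (-0.33 each), and without hypoxic knockout 4, 5 or 7 P4ha1 was called lower in hypoxic than in normoxic knockouts (-0.45 each). Limma-voom called Kdm3a in normoxic knockouts against normoxic controls with all libraries. Of 36 other HIF targets, 8 rose and 5 fell in hypoxic knockouts against hypoxic controls and 7 rose and 2 fell in normoxic knockouts against normoxic controls, while none was called in hypoxic against normoxic controls. Of all genes, 10.4% were called higher and 9.37% lower in the first of these comparisons and 6.9% and 5.27% in the second, and without hypoxic knockouts 1 to 3 the counts in hypoxia were 6 and 4. Ndufa4l2, a mitochondrial subunit induced by HIF, averaged 28.3 ± 7.96 CPM (SD, n = 7) in hypoxic knockouts and 1.52 ± 1.39 CPM (n = 4) in hypoxic controls (4.22 ± 0.53, adjusted p = 5.81e-05). Pericytes express Ndufa4l2 as well, and the markers of pericytes and smooth muscle had median log2 fold changes of 1.32 in hypoxia and 1.79 in normoxia; their part in this rise was not tested.

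Levels within the hypoxic groups were not homogeneous. Pfkfb3 had 58.6, 65.7 and 65.3 CPM in hypoxic knockouts 1, 2 and 3, and 107.8, 109.4, 101.2 and 103.8 CPM in hypoxic knockouts 4 to 7. In hypoxic controls it had 65.5, 66.3 and 59.9 CPM in replicates 3, 4 and 5, and 104.6 CPM in replicate 6. Each genotype thus held libraries at both levels and none between. Ak4 followed with 168.5, 159.5 and 159.3 CPM in hypoxic knockouts 1 to 3 and 197.1 to 214.5 CPM in 4 to 7, beside 149.1 to 168.8 CPM in hypoxic controls 3 to 5 and 229.2 CPM in control 6. Ddit4 had 113.3 to 135 CPM and 143.8 to 198.2 CPM in the same sets of knockouts, beside 173.1 to 192 CPM and 240.1 CPM in the controls. Mxi1 had 162.7 to 182 CPM in hypoxic knockouts 1 to 3 and 204 to 232.1 CPM in 4 to 7, but hypoxic control 6 had the lowest level of the 4 controls, 275.7 CPM. Vhl, Egln1 and Pfkfb4 also separated these knockouts. They had 215.7 to 223.5, 142.7 to 144.6 and 15.1 to 18.6 CPM in hypoxic knockouts 1 to 3. In 4 to 7 they had 257.5 to 276, 163 to 171 and 21.7 to 24.3 CPM. Hypoxic controls had 243.6 to 261, 140.7 to 154.3 and 19.7 to 21.3 CPM. The labels name no batch or time of sampling for these libraries, and because the sets were seen in the values they were neither tested nor averaged. The fit without hypoxic knockouts 1 to 3 removes the knockouts at the lower Pfkfb3 level and keeps hypoxic controls 3 to 5, also at that level. Pfkfb3 was then called higher in hypoxic knockouts than in hypoxic controls (0.51, adjusted p = 0.0462). That call follows from which libraries were left out and cannot be read as an effect of knockout. The same fit lost 8 of the 21 calls there (Adm, Aldoc, Bnip3, Pkm, Slc16a3, Slc2a1, Slc2a3 and Tpi1). It added Aldoa, Egln2, Pgk1 and Pkm between normoxic knockouts and controls, Egln1 and Pfkfb4 between oxygen levels in knockouts, where it lost Pgk1, and Epas1 and Mxi1 between oxygen levels in controls.

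**Figure D5:**
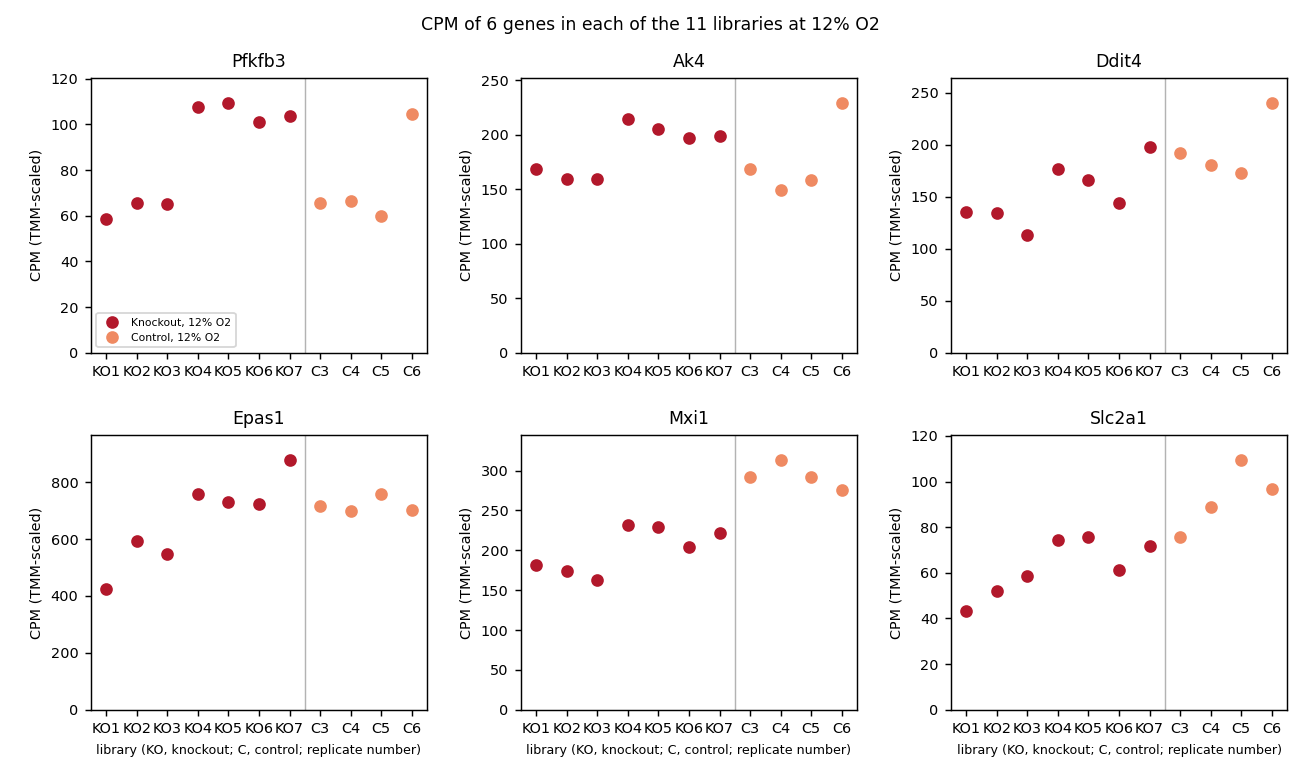
CPM of 6 genes in each of the 11 libraries at 12% oxygen, with 7 knockouts (KO1 to KO7) left of 4 controls (C3 to C6); each axis starts at 0. Pfkfb3 lies at 58.6 to 66.3 CPM in KO1 to KO3 and C3 to C5 and at 101.2 to 109.4 CPM in KO4 to KO7 and C6, while Epas1 and Slc2a1 are lowest in KO1 to KO3.

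Across all alternatives run except the replicate block, 28 fits in each knockout comparison, 7 of the 12 normoxic calls were kept every time (Gpi1, Pfkl, Pfkp, Eno1, Ldha, Pdk1 and Ddit4). In hypoxia 11 of 21 were kept every time (Gpi1, Pfkl, Pfkp, Aldoa, Pgk1, Eno1, Ldha, Pdk1, Hif3a, Mxi1 and P4ha2). Of the 8 calls between oxygen levels in knockouts, 4 were kept (Slc2a1, Pfkl, Pdk1 and Epas1).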

How the data were processed

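Whole-number gene counts and RPKM values were deposited by the authors; the deposited RPKM equal counts divided by column total and gene length within a relative difference of 1.72e-13. HISAT2, edgeR and the build GRCm39 appear in the submitters' processing notes; versions, the counter and its use of strand are not given in the sources used here. Per the labels' protocols the mRNA kit was stranded. Of counts between 2 and 21, 65.9% were even, and whether mates were counted singly is not given.

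A single edgeR 4.0.16 model (quasi-likelihood, robust; R 4.3.3) with 4 group terms was fitted to the 19 libraries after filterByExpr and TMM scaling, and 5 contrasts were tested; the 2 hypoxic controls without a column took no part. CPM are scaled by TMM, and the SE is the absolute log2 coefficient over the square root of F. The members and lists were chosen with earlier results of these data known. Members called in a contrast are given per library for its groups (hypoxic knockouts as lowest, median and highest), and most others as ranges; of each list outside the members, at most the 3 called genes with the smallest adjusted p are named. The code was tested on simulated data. Of the gene IDs, 52083 had a symbol. Aldoa has 2 IDs, and the other holds 473 counts in all.

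No label ties each library to its own animal, and the p-values thus describe spread between libraries, which may be technical. Same-numbered knockout and control libraries in hypoxia had correlated deviations from their group means (0.268, 0.116, 0.118 and 0.124, all above 0.1). Libraries of different numbers were not compared in this way, so these correlations cannot show that the numbers mark pairs. The numbers were used only in the replicate block, and all other SE and p-values come from fits without them. Replicates were compared by chi-square and counted separately. Alternatives were RLE scaling, no filter, 1 CPM in 4 libraries, mitochondrial and globin genes left out, a Y-linked covariate, hypoxic knockouts 1 to 3 left out, each library left out, fits of the compared groups alone, a replicate block, DESeq2 1.42.0 and limma-voom with sample weights (limma 3.58.1).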

Additional observations from a re-analysis of the deposited data

Results flagged for a closer look

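In groups of 4 to 7 libraries, 9 of 152 sets of values, from 8 of the 38 genes, had a library far from the others by Dixon's criterion, which chance meets in about 1 of 20. In hypoxic control 6, Pfkfb3 had 104.6 CPM where the other 3 had 59.9 to 66.3, P4ha2 had 4.08 CPM where they had 7.4 to 7.71, and Tpi1 had 846.5 CPM where they had 779.1 to 787.1. Hypoxic control 3 had 12.8 CPM of Hk2, where the others had 4.73 to 5.95. Hypoxic control 4 had 19.7 CPM of Pfkfb4 (others 21.1 to 21.3) and 140.7 CPM of Egln1 (others 152.2 to 154.3). Normoxic knockout 3 had 72 CPM of Pdk1 (others 58.2 to 58.7). Normoxic control 1 had 17.1 CPM of Slc2a3 (others 14.2 to 14.4) and 26.1 CPM of Pfkfb4 (others 22.4 to 22.7).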

How the results depend on the processing

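Shares of all genes called are given for the main fit only, so the counts of alternatives stand without them. For knockout against control in normoxia, limma-voom called 21 of the 38 genes, where edgeR called 12. Leaving out 1 library gave 7 to 17, the lowest without normoxic knockout 3. With Y-linked RNA as a covariate 8 were called, without Adm, Hk1, Mxi1, Pfkfb4 and Slc2a3 and with Egln2. For knockout against control in hypoxia every alternative stayed within 1.5 times the 21 calls, and leaving out 1 library gave 16 to 23. The replicate block keeps only numbers found in both groups, so in hypoxia it left out hypoxic knockouts 1, 2 and 7. It called 17 there (12 higher, 5 lower), and the effects of the blocks and of the missing libraries cannot be told apart. For hypoxia against normoxia in controls the count was 2 without hypoxic knockouts 1 to 3, 2 in a fit of the 2 groups alone, 2 with DESeq2 and 3 with limma-voom, and 0 without any 1 library. For hypoxia against normoxia in knockouts DESeq2 called 15 where edgeR called 8, and leaving out 1 library gave 5 to 10, the lowest without normoxic knockout 1. In the other comparisons the shared numbers were not taken as pairs (lowest correlations -0.0349, 0.0182 and -0.255). The replicate block gave 10 calls in normoxia, 0 in controls and 0 in knockouts between oxygen levels, and 0 for the interaction. Between oxygen levels it used only replicates 3 and 4 of the controls and 1 to 4 of the knockouts. DESeq2 called 1 gene for the interaction (P4ha2), and leaving out 1 library gave 0 to 1; a fit of its groups alone is the fit itself. Over all alternatives, 116 gene and comparison calls were lost and 106 gained, and no called value changed sign; the cause was not tested. Low counts limit Ca9, Ankrd37, Slc16a3 and Adm.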
